A study of Mus musculus with 7 samples.

Results

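Qk and 7 further genes for proteins that bind RNA (Hnrnpa2b1, Mbnl1, Mbnl2, Celf1, Celf2, Elavl1 and Hnrnpa1) were described across oligodendrocyte lineage cells (OLCs) of the adult mouse forebrain. They are 8 of the 27998 genes in the count table and were taken by symbol. They were chosen by results already seen in these libraries, the lower level of Qk in the mature oligodendrocytes of ectopic origin among them. Their values are therefore a description, given with no test.

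The study asked whether OLCs of ventral origin take on the properties of the dorsal OLCs that they replace. Cells were sorted by a reporter driven from Sox10, a transcription factor gene active throughout the lineage, and profiled by droplet-based single-cell RNA sequencing (10x Genomics 3′ chemistry). All mice were adult (P90, given as 11 to 14 weeks), on a C57BL/6-B6CBA background, and carried Emx1-Cre, which is active in dorsal (cortical) progenitors, and Sox10-GFP-tdTom, which turns from GFP to tdTom once Cre has acted. Control dOLCs were the tdTom-positive cells and control vOLCs the GFP-positive cells of 4 control mice of that genotype. Ectopic vOLCs were the GFP-positive cells of 2 mice that also carried Sox10-GFP-DTA, in which diphtheria toxin fragment A ablates the dorsal lineage. The ablation is incomplete, the mice of a condition were pooled, and their cells cannot be told apart in the files. Labels place the tissue in the motor and cingulate cortex, whereas the methods of the study name the neocortex and corpus callosum for the adult cells. With only 1 library behind each condition, conditions could not be tested against each other: intervals below are 95% counting intervals and hold no spread between mice.

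Myelin is built far from the cell body, and its messenger RNAs (mRNAs) are spliced, stabilised, moved along the processes and translated there under proteins that bind them. Qk encodes quaking (QKI), a STAR-family protein that is required for compact myelin in mice and that acts on the splicing, stability and export of myelin mRNAs. Hnrnpa2b1 encodes hnRNP A2 and B1, which bind a short element in Mbp mRNA during its transport, and Hnrnpa1 encodes the related splicing regulator hnRNP A1. The muscleblind proteins of Mbnl1 and Mbnl2 and the CELF proteins of Celf1 and Celf2 often act on the same exons in opposite directions during development. Elavl1 encodes HuR, which binds AU-rich stretches and stabilises many mRNAs.

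QKI binds RNA at a core of ACTAAC or ACTAAT (U for T in the RNA) joined to a nearby TAAC or TAAT. This pair was searched for, on the transcript's strand only, in the longest annotated 3′ untranslated region (UTR) of each gene, with at most 20 bases between its parts and no overlap of them. It was present once in 5 of the 8 genes. These sites are shown because they mark which members' own mRNAs hold the letters that QKI binds. Letters are given 5′ to 3′ in 30 bases of GENCODE M21 transcripts (GRCm38, mm10), each inside the 3′ UTR, with the core and its partner in capitals.
Qk, chr17:10206526-10206555, minus strand: ACTAACtctggactatgtttgtttatTAAC
Hnrnpa1, chr15:103244421-103244450, plus strand: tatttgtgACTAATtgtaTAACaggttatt
Hnrnpa2b1, chr6:51460968-51460997, minus strand: atACTAATaggagaaaaaagcatTAATagg
Mbnl2, chr14:120430948-120430977, plus strand: tttgtagACTAATtgttgTAACtgtccttt
Celf2, chr2:6546702-6546731, minus strand: caaacACTAATgtgcagttcTAACtctgaa

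Long UTRs often hold such a pair. Among 3′ UTRs within 20% of the same length, 53.8% held it for the 7014 bases of Qk, 56.0% for the 7381 bases of Celf2 and 26.4% for the 2748 bases of Mbnl2. The 3′ UTRs of Hnrnpa1 (714 bases) and Hnrnpa2b1 (523 bases) are short, and 6.98% and 5.56% of UTRs like them held it. Over all 20245 genes with a 3′ UTR the share was 13.6%. The pair was not found in these letters in Mbnl1, Celf1 or Elavl1. QKI is known to bind the Hnrnpa1 3′ UTR. A match elsewhere is a description of the sequence and not a measured site.

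The 3 libraries held 5804 control dOLCs, 925 control vOLCs and 2562 ectopic vOLCs after the filter of the authors, with a median of 3489.5, 5022 and 5318.5 UMIs per cell (a UMI marks 1 captured RNA molecule). Kept cells of any 2 libraries shared 6 to 24 barcode sequences. Cell types are the 11 clusters of the authors' annotation: OPCs (precursors), cycling OPCs, newly formed and myelin-forming stages (COP/NFOL/MFOLa and MFOLb), and mature oligodendrocytes (MOL1, MOL2a, MOL2b and MOL5/6a to MOL5/6d). MOL5/6 below joins its 4 subclusters, and OPC leaves out cycling cells. Levels are given as CPM, the UMIs of a gene per 1000000 UMIs, both summed over the cells of a cluster and library. The summed level of 4 mature markers (Mog, Mag, Mobp and Cldn11) was between 13585 and 15733 CPM in MOL5/6, against 1287 to 2913 CPM in OPCs. The summed level of 5 OPC markers was 6623 to 8269 CPM in OPCs and 36.2 to 81.3 CPM in MOL5/6, so the names held for both. Reads of this chemistry come from 3′ ends, and counts are given per gene only. The QKI isoforms and other splice forms therefore cannot be told apart here.

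Qk was present at every stage, and among clusters with at least 20 cells it was lowest in OPCs and highest in a part of the mature cells. In control dOLCs its level was 577 CPM in OPCs, 1051 CPM in COP/NFOL/MFOLa, 1079 CPM in MFOLb and 1359 CPM in MOL5/6. Within MOL5/6 it differed widely between subclusters, at 721 CPM in MOL5/6a, 1074 CPM in MOL5/6d, 1396 CPM in MOL5/6b and 1753 CPM in MOL5/6c. MOL2a (1107 CPM), MOL2b (1223 CPM) and MOL1 (1320 CPM) lay between. Of the 9 pairs of neighbours in this order, 7 overlapped in their range over the libraries with at least 20 cells. The steps without overlap were from MOL5/6c to MOL5/6b and from COP/NFOL/MFOLa to MOL5/6a. The clusters were made from the expression of these same cells, so differences between them are a description. Per the study's methods only the most variable genes were used, and whether Qk was among them is not given in the sources used here. The 17 cycling OPCs of control dOLCs gave 624 CPM.

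**Figure D1:**
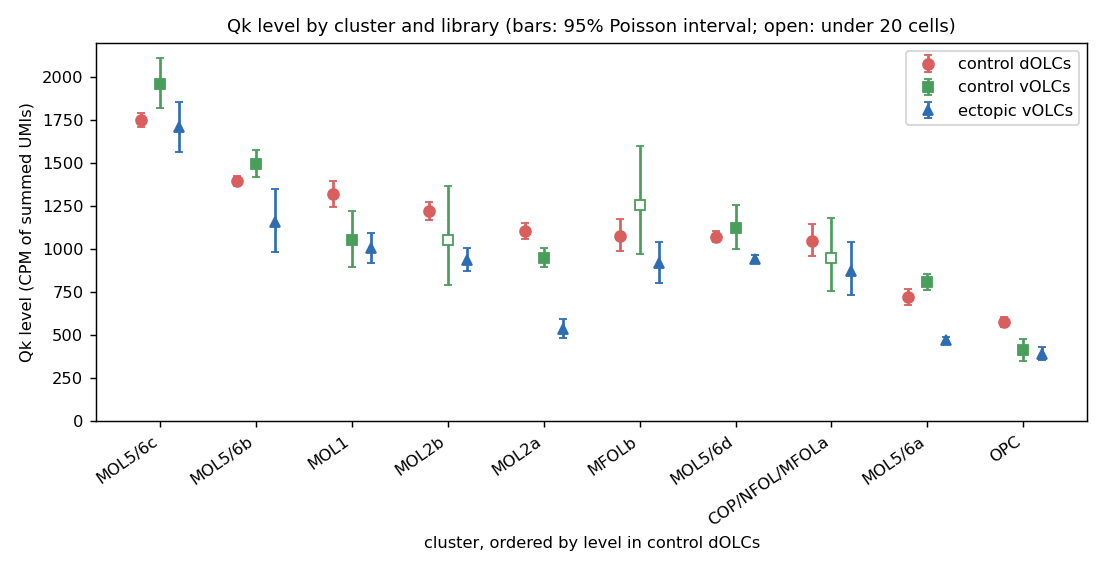
Level of Qk (CPM of summed UMIs, vertical axis) in 10 clusters ordered by control dOLCs (horizontal axis), with 1 point per library, 95% Poisson intervals as bars and open points for units of under 20 cells. MOL5/6c was highest at 1708 to 1962 CPM in the 3 libraries, and in MOL5/6a and MOL2a the ectopic library lay well below both control libraries.

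In MOL5/6, Qk stood at 1359 CPM in control dOLCs (95% Poisson interval 1340 to 1378), 1206 CPM in control vOLCs (1166 to 1246) and 788 CPM in ectopic vOLCs (771 to 805). The ectopic library was the lowest, and the 3 counting intervals did not overlap. Relative to control dOLCs, the ectopic library had a log2 ratio of −0.79 (−0.82 to −0.75), a level lower by 42.0%. Against control vOLCs it was −0.61 (−0.67 to −0.56). Control vOLCs against control dOLCs gave −0.17 (−0.22 to −0.12). These 3 comparisons share libraries and are not independent of each other. Across cells, the median cell had 1291 CPM of Qk in control dOLCs, 1102 CPM in control vOLCs and 674 CPM in ectopic vOLCs, and 13.0% of ectopic MOL5/6 lay above the median control dOLC. Pooled MOL5/6 holds different subclusters in each library: set against the median control dOLC of the same subcluster, MOL5/6a had a share of 26.4%, MOL5/6b 28.6% and MOL5/6d 36.2%. For MOL5/6c it was 52.4%, so the median cell there was not lower.

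The ectopic library held other proportions of the 4 MOL5/6 subclusters than the control libraries. MOL5/6a, where Qk was lowest, was 8.82% of the MOL5/6 of control dOLCs, 42.2% of those of control vOLCs and 48.9% of those of ectopic vOLCs. MOL5/6b and MOL5/6c, where Qk was highest, were 51.5% and 24.6% of MOL5/6 in control dOLCs, and 2.28% and 3.42% in ectopic vOLCs. The Qk ratio was much smaller once the mix was held equal. With the subclusters of each library weighted to the mix of control dOLCs, the ectopic ratio to that library was −0.18 in place of −0.79. With the mix of ectopic vOLCs, a setting chosen after the data were seen, it was −0.29. Under these 2 mixes control vOLCs were higher than control dOLCs, by a log2 ratio of 0.12 and 0.10, in the opposite direction to the pooled value. The subclusters were made from the expression of these cells, and the part of the mix in the pooled Qk ratio was not tested further.

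Within subclusters, the lower Qk of the ectopic library was clearest in MOL5/6a. There it was 721 CPM in control dOLCs, 808 CPM in control vOLCs and 472 CPM in ectopic vOLCs, so that the ectopic library lay below both controls. The log2 ratio in MOL5/6a was −0.61 (−0.72 to −0.50) to control dOLCs and −0.78 (−0.89 to −0.67) to control vOLCs. In MOL5/6d, the other large ectopic subcluster, levels were 1074, 1123 and 945 CPM in the same order, and the ratios were −0.19 (−0.25 to −0.13) and −0.25 (−0.42 to −0.08). In MOL5/6b, with only 42 ectopic cells, they were −0.27 (−0.50 to −0.04) and −0.37 (−0.61 to −0.13). In MOL5/6c, with 63 ectopic cells, the level was 1753 CPM in control dOLCs and 1708 CPM in ectopic vOLCs, with a ratio of −0.04 (−0.16 to 0.09). Against control vOLCs it was −0.20 (−0.36 to −0.04).

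Among the other mature clusters, the ectopic library lay below both controls in MOL2a. Qk there was 1107 CPM in control dOLCs, 950 CPM in control vOLCs and 539 CPM in ectopic vOLCs, with ratios of −1.04 (−1.20 to −0.88) and −0.82 (−0.99 to −0.65) for the ectopic library. In MOL2b it was 1223 CPM in control dOLCs and 940 CPM in ectopic vOLCs (−0.38, −0.50 to −0.26). The control vOLCs of MOL2b were 6 cells and are not compared. In MOL1 it was 1320, 1053 and 1007 CPM, so that both ventral libraries lay below control dOLCs. The ventral libraries did not differ beyond counting error there (ectopic to control vOLCs −0.06, −0.32 to 0.20).

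**Figure D2:**
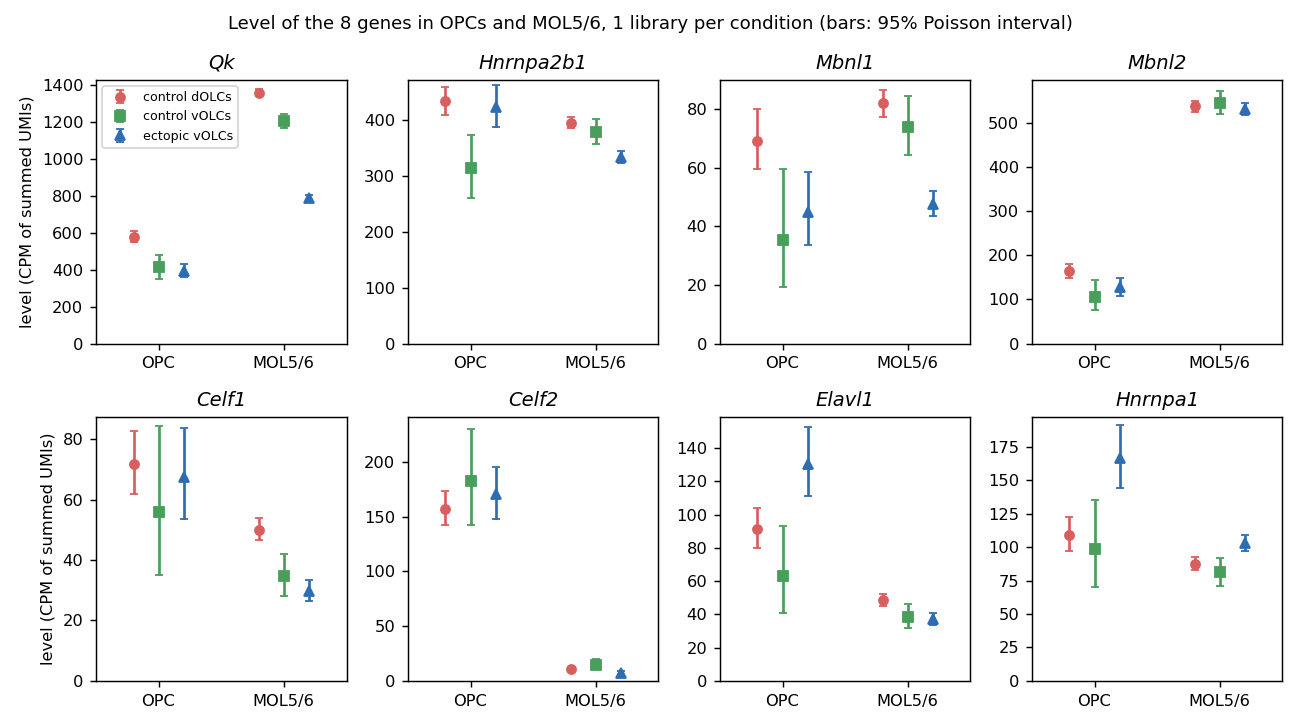
Level of each of the 8 genes (CPM of summed UMIs, vertical axes from 0, a scale of its own per gene) in OPCs and in MOL5/6 (horizontal axes), with 1 point per library and bars for the 95% Poisson interval. In MOL5/6 the ectopic library was the lowest for 7 genes and the highest for Hnrnpa1, but its interval overlapped those of both control libraries for Mbnl2 (537, 546 and 532 CPM) and that of control vOLCs for Celf1 and Elavl1.

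A gene was counted as lower or higher where its log2 ratio was at or past −0.5 or 0.5, and only if both libraries together held 50 or more of its UMIs and a UMI was found in 10% or more of cells in one library. In MOL5/6, 7 of the 8 genes passed this filter, and Celf2 did not. Of the 7, 3 were lower in the ectopic library relative to control dOLCs (Qk, Mbnl1 and Celf1) and 0 higher. Over all 5218 genes past the filter, 14.8% were lower and 2.05% higher. That split depends on the scaling: with the TMM factors of edgeR, which moved the median of all genes by 0.15, 9.51% were lower and 6.31% higher, and the number of lower members was again 3. The call of all 3 was lost with the subcluster mix held equal and with length taken into account. In the mix of control dOLCs Qk (−0.18), Mbnl1 (−0.12) and Celf1 (−0.11) were inside the limit and 1 other member, Elavl1, was lower, with 8.87% of all genes. In the mix of ectopic vOLCs, added after the data were seen, 0 members and 3.85% of all genes were lower. With the median of the like-length bin subtracted, 0 members and 5.35% of all genes were lower. Against control vOLCs, 2 of the 7 were lower (Qk and Mbnl1), with 15.8% of 5496 genes lower and 2.57% higher, and both calls were lost in the same 3 settings. That of Qk was also lost, narrowly, with median of ratios size factors (−0.4996). Control vOLCs against control dOLCs gave 1 lower member (Celf1) and 0 higher, with 1.75% of 5195 genes lower and 3.62% higher. That Celf1 ratio (−0.53) came inside the limit in both mixes (−0.12 and −0.34), with like length (−0.43), with TMM or size factors (−0.49), with reduced totals, which leave out mitochondrial genes and the 20 highest genes (−0.50, just inside), and with a limit of 10% mitochondrial counts (−0.45). The median log2 ratio of the 7 members in ectopic vOLCs against control dOLCs was −0.39, and that of all genes −0.03.

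The muscleblind genes went apart. Mbnl1 stood at 82.0 CPM in the MOL5/6 of control dOLCs, 74.0 CPM in control vOLCs and 47.7 CPM in ectopic vOLCs, with the ectopic library lowest. Its log2 ratio was −0.78 (−0.94 to −0.63) to control dOLCs and −0.63 (−0.87 to −0.40) to control vOLCs. Mbnl2, which has a very similar role, was at 537, 546 and 532 CPM. The 3 libraries were close, with ratios of −0.02 (−0.06 to 0.03) and −0.04 (−0.12 to 0.04). With TMM factors these were 0.13 and 0.063, on the other side of 0. Within subclusters Mbnl1 was lower in MOL5/6a (−0.55, −0.97 to −0.12) and MOL5/6d (−0.33, −0.58 to −0.07) against control dOLCs, while MOL5/6c gave 0.21 (−0.29 to 0.68). With the mix of control dOLCs its pooled ratio was −0.12. It was also lower in MOL1 (117, 113 and 48.2 CPM, −1.28 to control dOLCs) and in MOL2 as a whole (79.7, 67.7 and 43.2 CPM, −0.89, −1.29 to −0.50).

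Celf1 differed from Celf2 in where it could be measured. It was at 50.1 CPM in the MOL5/6 of control dOLCs, 34.6 CPM in control vOLCs and 29.8 CPM in ectopic vOLCs. Both ventral libraries lay below the dorsal library: the ratio to control dOLCs was −0.75 (−0.94 to −0.56) for ectopic vOLCs and −0.53 (−0.85 to −0.23) for control vOLCs, and ectopic against control vOLCs gave −0.22 (−0.54 to 0.12). In the mix of control dOLCs the first of these was −0.11 and the second −0.12. Celf2 was at 10.5, 14.7 and 6.90 CPM, from 156, 43 and 73 UMIs, and was too rare in these cells for a comparison by the rule.

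Among the members, Hnrnpa1 alone stood above both control libraries in ectopic MOL5/6. It stood at 87.5 CPM in control dOLCs, 81.2 CPM in control vOLCs and 103 CPM in ectopic vOLCs. The ratios, 0.23 (0.12 to 0.35) and 0.34 (0.14 to 0.55), were under the size rule. In MOL5/6c the ratios were larger, at 0.58 (0.08 to 1.05) and 0.83 (0.08 to 1.59), from 41 UMIs in the ectopic library. In MOL5/6a they were 0.11 (−0.23 to 0.45) and −0.16 (−0.47 to 0.16), so the higher level was not seen in every subcluster. With libraries in the same order, MOL5/6d was at 110, 74.8 and 120 CPM. MOL5/6b was at 79.0, 79.2 and 64.8 CPM, from 9 UMIs in the ectopic library. The pooled ratios were 0.14 and 0.33 in the subcluster mix of control dOLCs. They were 0.07 and 0.04 in that of control vOLCs, and 0.12 and 0.38 in that of ectopic vOLCs. In MFOLb the ratio to control dOLCs was 1.10 (0.26 to 1.95), from 27 UMIs, in a cluster that also held RNA of astrocyte markers (values below). Its relative Hnrnpa2b1 was at 396, 379 and 335 CPM, with the ectopic library lowest and ratios of −0.24 (−0.30 to −0.18) and −0.18 (−0.28 to −0.08). These were −0.36 and −0.36 in the mix of control dOLCs, and −0.18 and −0.06 in that of ectopic vOLCs. TMM factors moved all ratios to control dOLCs up by 0.15, the first of these among them. Elavl1 was at 48.4, 38.7 and 37.0 CPM, with −0.39 (−0.57 to −0.21) for the ectopic library relative to control dOLCs and −0.32 for control vOLCs. In the subcluster mixes of control dOLCs, control vOLCs and ectopic vOLCs the first was −0.72, −0.58 and −0.26. The second was −0.06, −0.27 and 0.06 in the same mixes. Relative to control vOLCs, the ectopic library was at −0.07 (−0.37 to 0.25), and at −0.66, −0.31 and −0.33 in these mixes. Its MOL5/6b held only 3 Elavl1 UMIs. The part of the mix in these ratios was not tested.

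**Figure D3:**
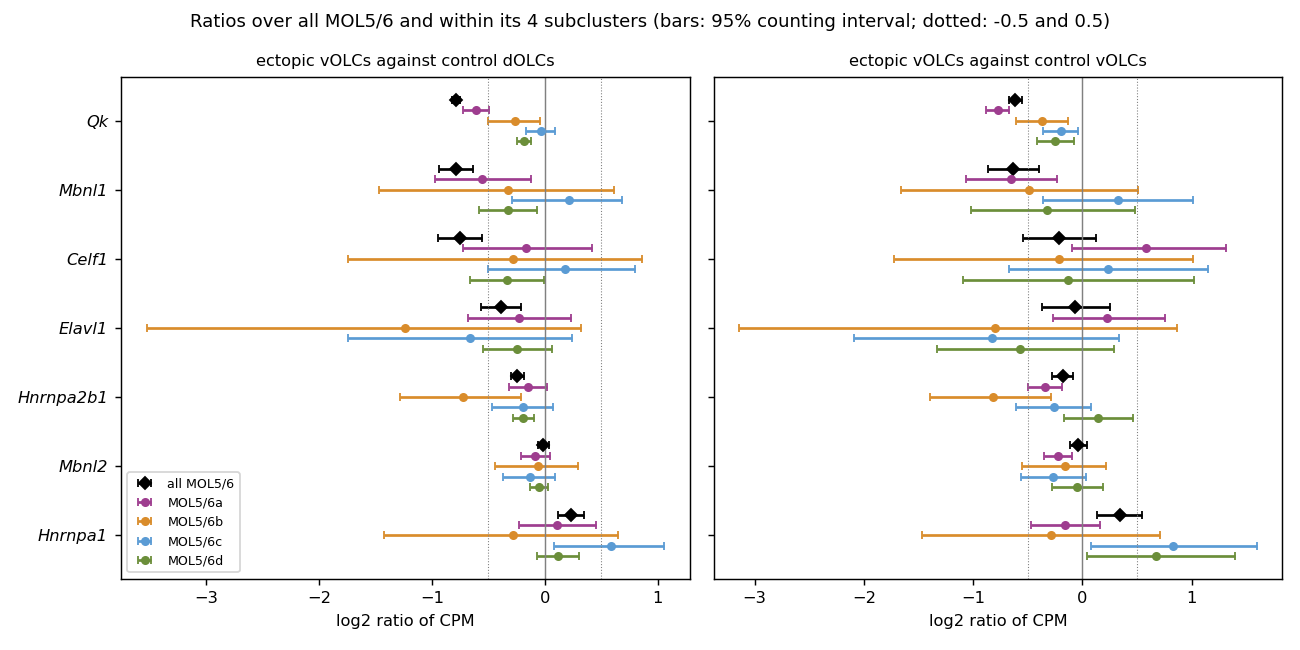
Log2 ratio of CPM (horizontal axes) for 7 genes over all MOL5/6 (diamonds) and within its 4 subclusters (circles), for ectopic vOLCs against control dOLCs (left) and control vOLCs (right), with 95% counting intervals as bars. For Qk the pooled ratio of −0.79 against control dOLCs lay below all 4 values within subclusters, which ran from −0.61 to −0.04.

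Ratios in ectopic MOL5/6 moved with transcript length over all genes. The lower members Qk, Mbnl1 and Celf1 have long transcripts, but so do Mbnl2 and Elavl1, which were not lower by the rule. Across 5082 genes with an annotated length, which are not independent of each other, Spearman's rho between the longest transcript and the log2 ratio to control dOLCs was −0.53. In the 4 longest of 20 bins of transcript length the medians were between −0.35 and −0.59, and 58.0% of the genes in the longest bin were lower by the rule, against 0.784% in the shortest. Qk has a longest transcript of 8547 bases, Celf1 of 7851 and Mbnl1 of 5655. Genes as long as Qk had a median ratio of −0.59, so Qk at −0.79 was lower than the median by 0.19, and 27.1% of that bin were at or below it. Mbnl1 was lower than its bin by 0.44 and Celf1 by 0.26. Mbnl2, of nearly the same length as Mbnl1 (5561 bases), was 0.33 above its bin. Elavl1 (5743 bases) was lower than the same bin by only 0.04. For ectopic against control vOLCs rho was −0.50, and control vOLCs against control dOLCs showed little of this in MOL5/6 (rho −0.10). In OPCs rho was −0.35 for ectopic vOLCs against control dOLCs and −0.39 against control vOLCs. For control vOLCs against control dOLCs it was 0.20 in OPCs. The part of length in the Qk ratio was not tested.

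**Figure D4:**
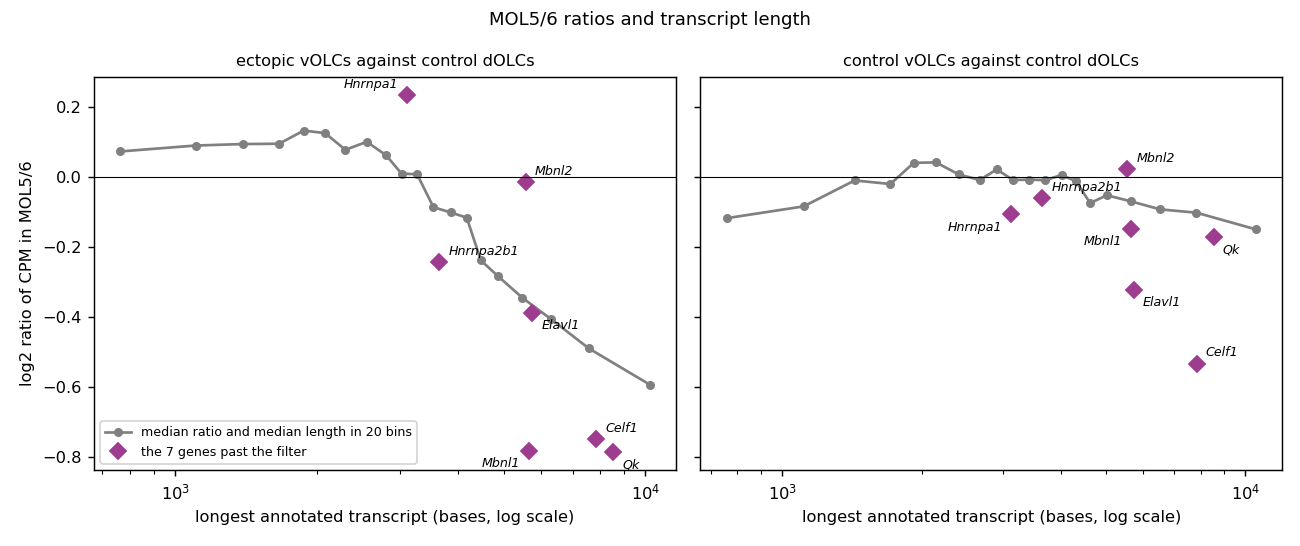
Log2 ratio of CPM in MOL5/6 (vertical axes) against the longest annotated transcript in bases (horizontal axes, log scale), as medians of 20 bins of all genes (grey) and for the 7 members past the filter (diamonds). Against control dOLCs (left) the medians went from 0.07 in the shortest bin to −0.59 in the longest in ectopic vOLCs, and for control vOLCs (right) they lay between −0.15 and 0.04.

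In OPCs, Qk was lower in both ventral libraries. Its level was 577 CPM in control dOLCs (549 to 607), 413 CPM in control vOLCs (352 to 481) and 393 CPM in ectopic vOLCs (359 to 431). The ventral libraries overlapped each other and lay below the dorsal library. Relative to control dOLCs, the ratio was −0.55 (−0.71 to −0.40) for ectopic vOLCs and −0.48 (−0.73 to −0.25) for control vOLCs. Ectopic relative to control vOLCs gave −0.07 (−0.33 to 0.20). RNA of mature oligodendrocytes moved the same way in these cells: the 4 mature markers, all 4 with UMIs in every library, summed to 2913 CPM in the OPCs of control dOLCs, 1287 CPM in control vOLCs and 1324 CPM in ectopic vOLCs. Without the 6% of cells with the highest doublet score in each library, the ectopic Qk ratio was −0.42. The part of mature RNA in the OPC difference was not tested.

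All 8 members passed the filter in OPCs. Against control dOLCs, 2 were lower in ectopic vOLCs (Qk and Mbnl1) and 2 higher (Elavl1 and Hnrnpa1), with 7.45% of 6110 genes lower and 8.48% higher. The call of Qk was lost without the highest doublet scores (−0.42) and with like length (−0.44). That of Elavl1 (0.51) was lost with reduced totals (0.47), in cells of 3000 to 6000 UMIs (0.33), when thinned (0.20), without the highest doublet scores (0.45) and, narrowly, with size factors. Against control vOLCs, 0 were lower and the same 2 higher, with 13.5% of 5721 genes lower and 21.8% higher. Control vOLCs against control dOLCs gave 3 lower members (Mbnl1, Mbnl2 and Elavl1) and 0 higher, with 15.4% of 5863 genes lower and 14.7% higher. With like length taken off, 6 were lower: Qk (−0.66), Hnrnpa2b1 (−0.54) and Celf1 (−0.53) beside these 3, with 14.9% of all genes. Mbnl2 came inside the limit in cells of 3000 to 6000 UMIs (−0.38) and without the highest doublet scores (−0.45), and Elavl1 as a mean over cells (−0.44) and, narrowly, with the mitochondrial limit. The control vOLC library had 121 OPCs and 394731 UMIs in them, so the last 2 comparisons are the least precise.

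Elavl1 and Hnrnpa1 were highest in ectopic OPCs. Elavl1 was at 91.4 CPM in control dOLCs, 63.3 CPM in control vOLCs and 131 CPM in ectopic vOLCs, a ratio of 0.51 (0.21 to 0.81) and 1.04 (0.43 to 1.72), the second resting on 25 UMIs in control vOLCs. Hnrnpa1 was at 109, 98.8 and 166 CPM, with ratios of 0.61 (0.34 to 0.87) and 0.75 (0.25 to 1.29). For both genes the control libraries overlapped in their counting intervals. With cells thinned to 1000 UMIs, the Elavl1 ratio to control dOLCs was 0.20. The summed level of 5 immediate early genes, which handling of cells can induce, was 609, 514 and 848 CPM in these OPCs, also highest in the ectopic library, and its part in the difference was not tested. Mbnl1 was at 69.3, 35.5 and 44.9 CPM, and Mbnl2 at 164, 106 and 127 CPM, with the dorsal library highest for both, as it was for the mature markers in these OPCs (values above). The part of mature RNA in these 2 differences was not tested. Hnrnpa2b1 (435, 314 and 424 CPM) was lowest in control vOLCs. Celf1 (71.6, 55.7 and 67.4 CPM) and Celf2 (157, 182 and 171 CPM) overlapped in the counting intervals of all 3 libraries.

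Qk and Mbnl2 were higher in MOL5/6 than in OPCs: the log2 ratio for Qk was 1.23 (1.16 to 1.31) in control dOLCs, 1.55 (1.32 to 1.78) in control vOLCs and 1.00 (0.87 to 1.14) in ectopic vOLCs, and for Mbnl2 1.71, 2.36 and 2.06. Celf2 was far lower in MOL5/6, at −3.90, −3.63 and −4.63. Elavl1 was lower by a smaller step, at −0.92, −0.71 and −1.82, as was Celf1, at −0.52, −0.69 and −1.18. Hnrnpa2b1 gave −0.13, 0.27 and −0.34, Hnrnpa1 gave −0.32, −0.28 and −0.69, and Mbnl1 gave 0.24, 1.06 and 0.09. The medians of all genes past the filter were −0.36, −0.27 and −0.58 in the same libraries, so values near these follow most genes. At a step of 1 or more, 26.6% of 5825 genes were lower and 9.87% higher in control dOLCs, 27.1% and 15.1% in control vOLCs, and 34.8% and 9.96% in ectopic vOLCs. These values depend on the scaling, since TMM factors moved all of them by 0.50 in control dOLCs. Qk, Mbnl1, Mbnl2, Celf2 and Elavl1 kept their direction there, Hnrnpa2b1 (0.37) and Hnrnpa1 (0.18) changed it, and Celf1 came to −0.02. OPCs and MOL5/6 are clusters made from these cells, so the stage differences are a description of the clusters.

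Across the clusters of control dOLCs with at least 20 cells, Mbnl2 and Celf2 ran in opposite directions. Mbnl2 was between 464 and 628 CPM in the 8 mature and MFOLb clusters, 319 CPM in COP/NFOL/MFOLa and 164 CPM in OPCs. Celf2 was at 157 CPM in OPCs, 80.1 CPM in MFOLb, and between 5.39 and 15.4 CPM in the other clusters. MFOLb also held RNA of astrocytes: the summed level of 5 astrocyte markers there was 2700 CPM in control dOLCs, 3309 CPM in control vOLCs and 2163 CPM in ectopic vOLCs, with a UMI of each marker found except Gfap in control vOLCs. In COP/NFOL/MFOLa the sum was between 58.2 and 91.8 CPM, and in OPCs between 602 and 666 CPM. The part of these cells or this RNA in the MFOLb values of Celf2 and Hnrnpa1 was not tested. Elavl1 was highest in OPCs (91.4 CPM) and between 43.4 and 55.0 CPM in the other clusters. Hnrnpa2b1 lay between 311 CPM in MOL5/6a and 439 CPM in MOL5/6c, and 8 of its 9 pairs of neighbours in order overlapped over the libraries. Hnrnpa1 was highest in MOL2b, at 125 CPM, and lowest in MFOLb.

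The genes whose pattern was most like that of Qk over 22 units of cluster and library with at least 50 cells were Hipk2 (Pearson's r = 0.96), Dusp7 (0.95), Syt11 (0.95), 5031439G07Rik (0.94) and Shroom2 (0.94), among 2953 genes with a mean of at least 50 CPM. For Mbnl2 they were Csrp1 (0.99) and Slain1 (0.98), for Celf2 Dclk1 (0.96) and Hes5 (0.95), and for Elavl1 Fabp7 (0.90) and Camk1 (0.89). For Mbnl1 they were Arnt2 (0.89) and Cdc42bpa (0.87), for Celf1 Nktr (0.88) and Glg1 (0.87), for Hnrnpa1 Nap1l5 (0.89) and Gnas (0.86), and for Hnrnpa2b1 Senp6 (0.85) and Gnb1 (0.84). Among members, Qk went with Mbnl1 (0.78) and Mbnl2 (0.71) and against Celf2 (−0.43). The units share libraries, depth and the cells that made the clusters.

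Around these 8 genes, 97 others that bind, splice, move or translate RNA were listed in 5 groups, and 73 passed the filter in MOL5/6. Of the 73, 21 (28.8%) were lower in the ectopic library relative to control dOLCs and 0 higher, against 14.8% and 2.05% of all genes. Their median ratio was −0.22. They have longer transcripts than most genes, with a median of 4010 bases against 3152 over all genes past the filter. After subtracting the median of the bin of like length, 7 were lower, with 5.35% of all genes lower. In the mix of control dOLCs it was also 7, with 8.87% of all genes lower. Against control vOLCs, 14 of 74 (18.9%) were lower and 0 higher, against 15.8% of all genes. With control vOLCs set against control dOLCs, 2 of 74 (2.70%) were lower (Tra2a and Fyn) and 1 (1.35%) higher (Pabpc1), with 1.75% and 3.62% of all genes.

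The group for RNA transport and translation held most of them, with 12 of its 23 genes past the filter lower, a median ratio of −0.51 and a median transcript of 5957 bases. That is 52.2%, against 14.8% of all genes and 40.9% of the genes of 5864 to 6873 bases. The lowest were Cpeb2 (−1.15, −1.33 to −0.97) and Cpeb4 (−1.06, −1.28 to −0.84), for proteins that bind the cytoplasmic polyadenylation element, followed by Dync1h1 (−0.92), the heavy chain of the dynein motor. Kif1b, a kinesin motor with 1241 CPM in control dOLCs and 733 CPM in ectopic vOLCs, had a ratio of −0.76 (−0.80 to −0.72). Other hnRNPs gave 3 lower genes of 20 (15%, about the share of all genes), with Hnrnpa0 at −1.05 (−1.32 to −0.78), Hnrnpul2 at −0.87 and Syncrip at −0.61. Other splicing factors gave 5 lower genes of 15 (33.3%, with 24.0% of genes of 4314 to 4649 bases, the bin of their median length), Msi2 (Musashi 2) at −0.87, Tardbp at −0.58, Tia1 at −0.57, Tial1 at −0.56 and Ptbp3 at −0.52, and had a median of −0.39. Of the 12 SR proteins, which bind exons and promote splicing, 1 (8.33%) was lower (Srsf1, −0.51), and their median was 0.07. The highest of the 73 ratios were those of Srsf5 (0.41), Srsf2 (0.32), Hnrnpk (0.31), Srsf3 (0.29) and Hnrnpf (0.25).

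Of 12 relatives of the members, 3 passed the filter in MOL5/6. Elavl3, a neuronal-type relative of Elavl1, was at 645 CPM in control dOLCs and 532 CPM in ectopic vOLCs (−0.28, −0.33 to −0.23). Sf1, which shares the RNA-binding fold of QKI and binds the branch point of introns, was at −0.16 (−0.32 to −0.01), and Khdrbs1 (Sam68), also of the STAR family, at 0.21 (0.09 to 0.33). In OPCs, 6 of the 12 passed and 0 were lower or higher relative to control dOLCs, and 2 of the 83 listed genes past the filter were lower and 5 higher (2.41% and 6.02%, against 7.45% and 8.48% of all genes). The lowest in OPCs were Cpeb2 (−1.28), Kif1b (−0.83) and Cyfip1 (−0.48), and the highest were Stau2 (0.73), Srsf4 (0.69) and Eif4e (0.61), followed by Hnrnpf (0.55) and Ptbp1 (0.54).

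**Figure D5:**
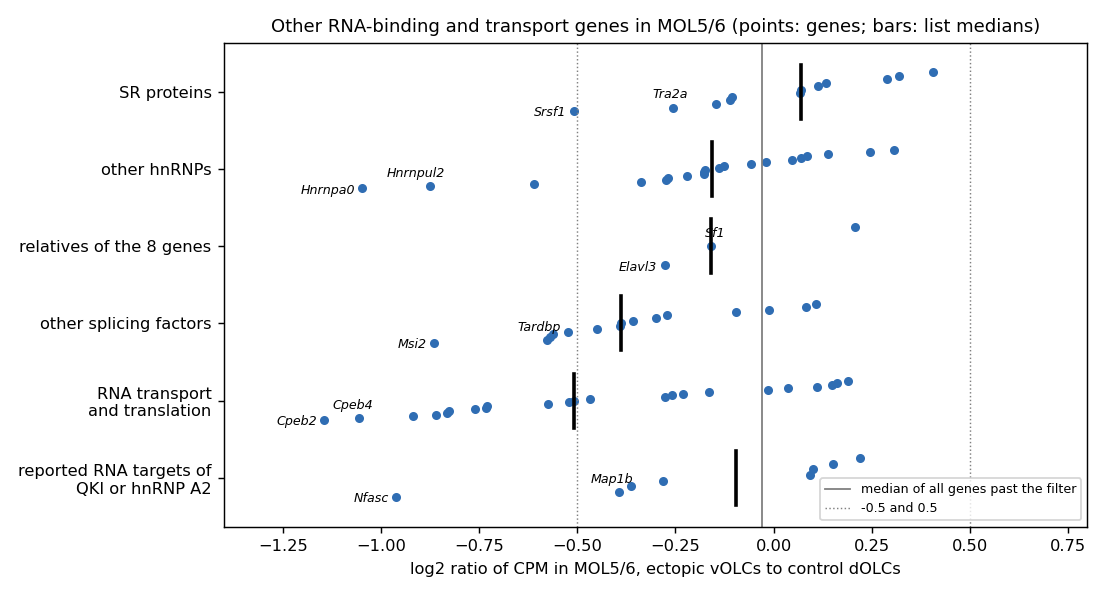
Log2 ratio of CPM in MOL5/6 for ectopic vOLCs against control dOLCs (horizontal axis) of the listed genes past the filter (points), by group, with the group medians as black bars. The group for RNA transport and translation had a median of −0.51 and the SR proteins 0.07, beside −0.03 for all genes.

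Of 9 genes reported as RNA targets of QKI or hnRNP A2, 8 passed the filter in MOL5/6. Several of them for myelin proteins were slightly higher in the ectopic library: Mbp was at 6035 CPM in control dOLCs and 6703 CPM in ectopic vOLCs (0.15, 0.14 to 0.17), Mag at 0.10, Mobp at 0.09 and Sirt2 at 0.22. Nfasc, for the neurofascin of the paranode, was the 1 lower gene, at 375 CPM in control dOLCs and 193 CPM in ectopic vOLCs (−0.96, −1.04 to −0.89), and its longest transcript has 9739 bases. Map1b (−0.39), Cdkn1b (−0.36) and Wdr1 (−0.28) were below 0, and Egr2 did not pass. Of all genes 14.8% were lower and 2.05% higher. Against control vOLCs, Nfasc (−0.74) and Cdkn1b (−0.57) were lower and 0 higher, with 15.8% and 2.57% of all genes. The summed level of the 4 mature markers in MOL5/6 was 13585 CPM in control dOLCs, 14162 CPM in control vOLCs and 15733 CPM in ectopic vOLCs. Within subclusters control dOLCs and ectopic vOLCs were closer to each other, with 18061 and 18488 CPM in MOL5/6a, 13778 and 13262 CPM in MOL5/6b, 11882 and 11808 CPM in MOL5/6c, and 13561 and 14130 CPM in MOL5/6d. In OPCs, 5 of 8 were lower in the ectopic library relative to control dOLCs, Mag (−1.42) the most, with 7.45% of all genes lower there and beside the lower sum of mature markers given above. Both ventral libraries shared this: control vOLCs against control dOLCs also gave 5 of 8 lower, with 15.4% of all genes, and ectopic against control vOLCs 0 of 8. Levels of mRNA do not show splicing or position in the cell, on which QKI and hnRNP A2 act.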

How the data were processed

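Adult OLCs were profiled in 3 libraries, 1 per condition; 4 P0 samples were not analysed here. The deposited table holds raw UMI counts that the authors made with Cell Ranger (2.1.1 per the submitters' processing notes) on mm10, with no normalization. The authors' annotation names a library and a cluster for every cell that they kept, and a percent of mitochondrial counts, deposited as computed by the authors; 5 of its columns were not used. The authors kept 9291 of 10081 barcodes (more than 200 but fewer than 3000 genes, mitochondrial share up to 15%) and clustered them with Seurat. UMI totals of the table equalled the annotation in 7651 cells, with at most 53 UMIs of difference.

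UMIs were summed per library and cluster and scaled to 1000000 (CPM). Levels carry exact Poisson intervals and ratios conditional exact binomial (Clopper-Pearson) intervals at 95%, for counting error only. Stage ratios used a step of 1. Doublets were not removed: Scrublet in scanpy (expected rate 0.06) called 50 cells (0.538%), so an alternative left out the 559 cells with the highest scores. Likeness used log2(CPM + 10). The ratios, their intervals and the size rule were tested on simulated UMI counts that hold counting error only. The other steps were not simulated.

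The members, lists, named genes and alternatives were chosen with earlier results of these data known. Genes named are the members, the lists' 5 lowest and 5 highest in MOL5/6 and 3 in OPCs, all relatives past the filter and the reported targets, plus the other genes named where a group's count is 5 or fewer, and Kif1b in MOL5/6, chosen after their values were seen. An item of the lists is not reported here. Transcripts and positions are from GENCODE M21 (GRCm38), in which 26646 of 27998 symbols matched; the count table's own annotation is not given in the sources used here. By BLAST 2.17.0, 0 other genes of the table shared 300 bases at 95% identity with a member. Tools were Python 3.11.15 (numpy 2.4.6, scipy 1.17.1, pandas 2.3.3, scanpy 1.11.5, matplotlib 3.10.9) and R 4.3.3 (edgeR 4.0.16, DESeq2 1.42.0, for scaling factors only).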

Additional observations from a re-analysis of the deposited data

Results flagged for a closer look

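Elavl1 went in opposite directions in MOL5/6 and OPCs. For ectopic vOLCs against control dOLCs its log2 ratio was −0.39 in MOL5/6 and 0.51 in OPCs, and neither counting interval reached 0. With cells thinned to 1000 UMIs the value in MOL5/6 was −0.08. Hnrnpa2b1 did the same for ectopic vOLCs against control vOLCs, with −0.18 in MOL5/6 and 0.43 in OPCs. With TMM factors the value in MOL5/6 was −0.08, and the value in OPCs rests on 124 UMIs in control vOLCs. With 1 library per condition, the difference between cell types was not tested for either gene.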

How the results depend on the processing

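No paired analysis was possible because no condition had a second library. Values below are for Qk in MOL5/6, ectopic vOLCs against control dOLCs and then against control vOLCs, reported as −0.79 and −0.61. They were −0.64 and −0.51 with TMM factors, −0.63 and −0.50 with median of ratios size factors, −0.91 and −0.73 as a mean over cells, −0.94 and −0.78 with cells thinned to 1000 UMIs, −1.08 and −0.83 in cells of 3000 to 6000 UMIs, and −0.72 and −0.52 with a limit of 10% mitochondrial counts. Without mitochondrial genes and the 20 highest genes in the totals the first was −0.75. TMM and size factors moved the median of all genes by 0.15 and 0.16.

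In the subcluster mix of control dOLCs Qk was at −0.18 and −0.30. Mixes added after seeing the data gave −0.29 and −0.39 (ectopic vOLCs) and −0.21 and −0.33 (equal weights). Taking off the median of genes of like length gave −0.19 and −0.18. For control vOLCs against control dOLCs (−0.17), the 3 mixes turned the direction (0.12, 0.10 and 0.12), cells of 3000 to 6000 UMIs gave −0.25 and like length −0.070. For Elavl1 in that comparison (−0.32) the ectopic mix gave 0.063 and the control vOLC mix −0.27.

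The count of lower members (3 and 2) was 1 and 1 in the control dOLC mix and with equal weights, where the gene was Elavl1, with 3 UMIs in ectopic MOL5/6b, and 0 and 0 in the ectopic mix and with like length taken off. With size factors the second was 1. The 21 lower genes of the wider list (14.8% of all genes) were 12 with TMM or size factors (9.51% and 9.16%), 7 in the control dOLC mix and with like length (8.87% and 5.35%), 5 in each added mix (3.85% ectopic, 5.48% equal) and 34 with no filter. The stage ratio of Qk in control dOLCs (1.23) was 1.73 with TMM or size factors, 1.45 with reduced totals, 1.34 as a mean over cells, 1.37 when thinned or without the highest doublet scores, and 1.71 with like length. The Qk ratio in OPCs stayed within its counting interval under all 9 alternatives run. Spread between mice could not be estimated.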
